A study of Homo sapiens with 8 samples.

Results

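The genes described here are keratins, only some of them of pancreatic duct epithelium, together with MUC1 and SOX9, in PANC-1 cells given eupalinolide B (EB). They were the 9 rows of the deposited gene table, of 20263, whose Ensembl identifier maps to KRT7, KRT8, KRT18, KRT19, KRT17, KRT80, KRT81, MUC1 or SOX9. PANC-1, an established line, was derived from a human pancreatic ductal carcinoma. RNA sequencing compared 4 cultures exposed for 24 h to EB at 10 μM, a sesquiterpene lactone of the herb Eupatorium lindleyanum, with 4 cultures given the solvent DMSO. The comparison asked how EB changes the transcriptome of pancreatic cancer cells, and 1 cell line at 1 dose and 1 time stands for them here. Values are TPM (transcript abundance scaled to transcript length and to a fixed total in each library), and a bulk library cannot tell fewer cells carrying a transcript from less of it per cell.

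Keratins build the intermediate filaments of epithelial cells, and each filament pairs a type I with a type II keratin. KRT8 (type II) with KRT18 and KRT19 (type I) is the filament set of simple epithelia such as the pancreatic duct, and KRT7 is the additional type II keratin of ducts. KRT17, KRT80 and KRT81 belong to stratified, differentiating and hair-forming epithelia. MUC1 is a transmembrane mucin of the apical duct surface, and SOX9 is the transcription factor that maintains duct and progenitor identity in the pancreas.

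With EB the simple epithelial keratins KRT8, KRT18 and KRT19 rose 2.26-, 2.80- and 3.48-fold (ratio of mean TPM), while KRT80, MUC1 and SOX9 fell, their mean TPM with DMSO being 2.30, 4.80 and 2.60 times that with EB. KRT7 and KRT81 stayed under 0.3 TPM in every library, and KRT17 was listed at 0 in all 8. Of the 9 genes, 6 passed the filter on low values (at least 4 libraries with 1 TPM or more) and were tested. By limma on log2(TPM + 1), with a Benjamini-Hochberg adjusted p under 0.05 over all 11725 genes tested, 3 of the 6 were higher with EB, against 15.2% of all genes tested, and 3 were lower, against 25.1%. Past the thresholds that the study names, an unadjusted p under 0.05 and a log2 fold change beyond 1.5 in size, KRT19 was the 1 gene higher (0.537% of all genes tested) and MUC1 the 1 gene lower (1.54%). In 3 genes every EB library lay above every DMSO library, which held for 16.6% of all genes tested, and in 3 every EB library lay below, which held for 20.3%. The median log2 fold change of all genes tested was -0.11.

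**Figure D1:**
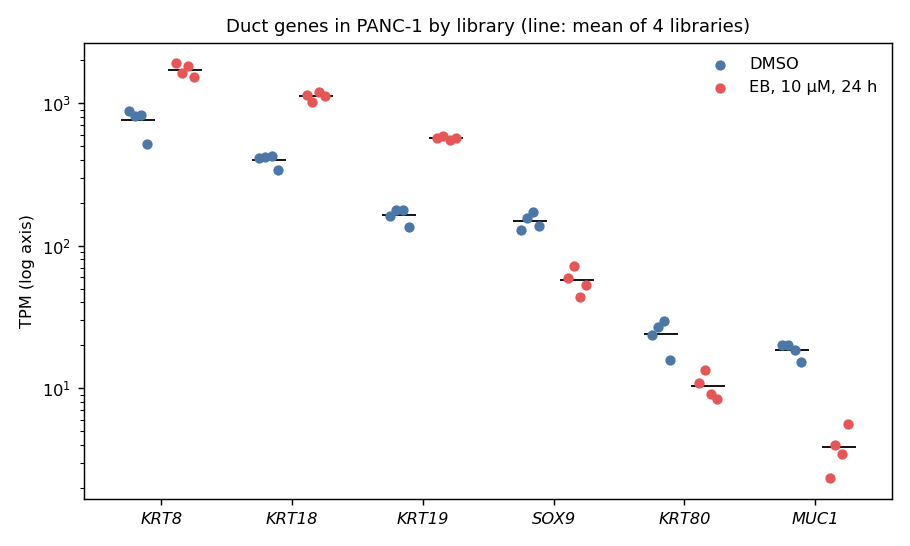
TPM on a log axis for the 6 tested genes in each of the 8 libraries, with 4 points for DMSO and 4 for EB and a line at each group's mean. KRT8, KRT18 and KRT19 lie higher with EB and SOX9, KRT80 and MUC1 lower, with no overlap between the groups of any of these genes.

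KRT8 (ENSG00000170421; hg38 chromosome 12, 52897187 to 52949954, minus strand) was the most abundant keratin of the cells. Its TPM was 877.4, 808.3, 820.9 and 513.7 in DMSO replicates 1 to 4, and 1896.7, 1612.3, 1811.4 and 1518.0 in EB replicates 1 to 4. The lowest EB library was above the highest DMSO library, and DMSO replicate 4 lay below the other DMSO libraries. The means were 755.1 ± 163.7 and 1709.6 ± 174.7 TPM (SD, n = 4 each), and the log2 fold change was 1.20 (SE 0.18, limma adjusted p = 0.00109). In rank of TPM among the genes of its library, KRT8 stood between 130 and 162 with DMSO and between 76 and 84 with EB. Without DMSO replicate 4 its log2 fold change was 1.03.

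KRT18 (ENSG00000111057; chromosome 12, 52948871 to 52952906, plus strand) encodes the usual filament partner of KRT8. Its start lies within the annotated span of KRT8, on the opposite strand, while the canonical start of KRT8 is at 52905076. With DMSO KRT18 measured 413.3, 417.3, 424.7 and 342.0 TPM, and with EB 1131.1, 1023.8, 1204.1 and 1118.6 TPM. The lowest EB library, at 1023.8 TPM, was far above the highest DMSO library, at 424.7 TPM. The mean moved from 399.3 ± 38.5 to 1119.4 ± 74.0 TPM (SD, n = 4), a log2 fold change of 1.49 (SE 0.12, limma adjusted p = 6.22e-05), and the rank from between 242 and 274 to between 112 and 122. Over any of their annotated transcripts, KRT8 and KRT18 share 525 exon bases on opposite strands, and their canonical transcripts share 0. The strand setting of the read assignment is not given in the sources used here, so reads from those shared bases could have gone to either gene. The annotation also holds 51 processed copies of KRT8 and 68 of KRT18, none of them in the table, and how reads matching both were assigned is not known.

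KRT19 (ENSG00000171345; chromosome 17, 41523617 to 41528308, minus strand), the type I keratin most used to mark pancreatic duct cells, had the largest log2 fold change of the 3 that rose. Its DMSO libraries held 162.7, 178.9, 176.4 and 135.5 TPM and its EB libraries 564.6, 583.1, 554.7 and 571.9 TPM. The 4 EB libraries were close to each other, with an SD of 2.11% of their mean, against 12.2% with DMSO. From 163.4 ± 19.9 TPM with DMSO the mean went to 568.6 ± 11.99 TPM with EB (SD, n = 4). The log2 fold change was 1.80 (SE 0.12, limma adjusted p = 3.10e-05), and KRT19 moved from ranks 716 to 841 to ranks 196 to 215.

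Because TPM of a library have a fixed total, the share taken by mitochondrially encoded transcripts bears on these levels. It was 39.0% in DMSO replicate 4, between 17.01% and 21.1% in the other DMSO libraries and between 11.6% and 20.3% with EB. With TPM rescaled to nuclear genes alone and DMSO replicate 4 left out, the log2 fold changes were 0.94 for KRT8, 1.33 for KRT18 and 1.63 for KRT19, and each kept a limma adjusted p under 0.05. In the rescaled values DMSO replicate 4 had the highest KRT18 of its group (560.6, against 498.0, 529.0 and 537.8 in replicates 1 to 3) and the lowest KRT8 (842.2, against 1057.3, 1024.8 and 1039.4).

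Ratios within a library do not depend on the scaling between libraries, and they showed that the keratins rose unequally. The ratio of KRT18 to KRT19 was 2.45 ± 0.0991 with DMSO (range 2.33 to 2.54) and 1.97 ± 0.171 with EB (range 1.76 to 2.17), with no overlap. That of KRT8 to KRT19 was 4.59 ± 0.656 (3.79 to 5.39) with DMSO and 3.01 ± 0.353 (2.65 to 3.36) with EB, again without overlap. The ratio of KRT8 to KRT18 was 1.87 ± 0.263 with DMSO and 1.53 ± 0.134 with EB, and these ranges overlapped through DMSO replicate 4, which had 1.502. Over the type II genes KRT7, KRT8, KRT80 and KRT81 and the type I genes KRT17, KRT18 and KRT19, type II to type I TPM was 1.37 ± 0.191 (1.11 to 1.57) with DMSO and 1.02 ± 0.0914 (0.903 to 1.13) with EB. Among these genes, type II transcripts exceeded type I in all 4 DMSO libraries. They also did in EB replicates 1 to 3 (1.13, 1.01 and 1.04), but not in EB replicate 4 (0.903). The group ranges overlapped through DMSO replicate 4 and EB replicate 1. KRT19 made up 29.0 ± 0.838% of the summed KRT17, KRT18 and KRT19 TPM with DMSO and 33.7 ± 1.96% with EB. Other type I keratins, such as KRT10 and KRT15, were not in this sum. KRT8, KRT18 and KRT19 together were 0.132 ± 0.0219% of all TPM with DMSO and 0.340 ± 0.0212% with EB, and 93.2 ± 0.654% and 96.4 ± 0.369% of the TPM of all keratin genes (SD, n = 4 throughout).

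**Figure D2:**
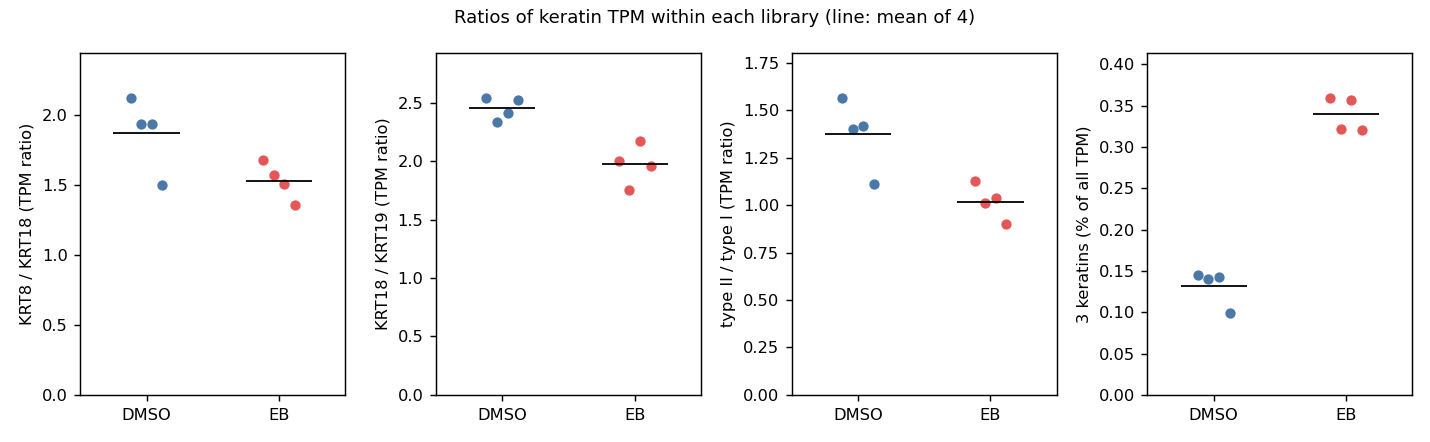
Within-library ratios of keratin TPM in the 4 DMSO and 4 EB libraries, with a line at each mean, for KRT8 to KRT18, KRT18 to KRT19, type II to type I, and KRT8, KRT18 and KRT19 as a percent of all TPM. KRT18 to KRT19 falls from a range of 2.33 to 2.54 to one of 1.76 to 2.17, while KRT8 to KRT18 overlaps between the groups.

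KRT7 (ENSG00000135480; chromosome 12, 52232520 to 52252186, plus strand) was listed at 0.297, 0, 0.0923 and 0 TPM with DMSO and at 0, 0.164, 0 and 0 TPM with EB. KRT81 (ENSG00000205426; chromosome 12, 52285913 to 52291534, minus strand), a keratin of hair, was at 0.0832, 0, 0.0125 and 0 TPM with DMSO and 0.0645, 0, 0.242 and 0 TPM with EB. KRT17 (ENSG00000128422; chromosome 17, 41619442 to 41624842, minus strand), which marks basal and wounded epithelium and the basal-like class of pancreatic cancer, was listed at 0 in each library. None of the 3 was tested, and no difference was detectable at these levels. The depth is unknown, so no upper limit can be put on the zeros.

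KRT80 (ENSG00000167767; chromosome 12, 52168996 to 52192014, minus strand), a type II keratin found near cell margins and desmosomes, was the 1 keratin among all those tested that fell. The DMSO libraries measured 23.7, 26.8, 29.4 and 15.9 TPM and the EB libraries 10.9, 13.5, 9.04 and 8.34 TPM. The lowest DMSO library, replicate 4, stood at 15.9 TPM, just above the highest EB library at 13.5 TPM. The means were 24.0 ± 5.87 and 10.4 ± 2.29 TPM (SD, n = 4), with a log2 fold change of -1.11 (SE 0.21, limma adjusted p = 0.00311).

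MUC1 (ENSG00000185499; chromosome 1, 155185824 to 155192916, minus strand) had the largest change of the 6 tested genes. It was at 20.2, 19.96, 18.5 and 15.3 TPM with DMSO and at 2.34, 3.995, 3.47 and 5.61 TPM with EB. Every DMSO library was above 15 TPM and every EB library below 6 TPM. The mean was 18.5 ± 2.27 TPM with DMSO and 3.85 ± 1.36 TPM with EB (SD, n = 4), and the log2 fold change was -2.04 (SE 0.20, limma adjusted p = 0.000148). Its rank went from between 5659 and 6117 to between 8525 and 10495 of 20263 genes. MUC1 shares 48 exon bases with ENSG00000273088, an overlapping gene whose log2 fold change was 0.52 (limma adjusted p = 0.0273).

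The promoter of MUC1 is shown because its gene moved most and because the transcript start of the sequence table is the one of the canonical transcript. It runs from 250 bases before to 50 bases after the start (RefSeq, GRCh38.p14, chr1:155192866-155193165, minus strand), and capitals mark the motifs found.
MUC1: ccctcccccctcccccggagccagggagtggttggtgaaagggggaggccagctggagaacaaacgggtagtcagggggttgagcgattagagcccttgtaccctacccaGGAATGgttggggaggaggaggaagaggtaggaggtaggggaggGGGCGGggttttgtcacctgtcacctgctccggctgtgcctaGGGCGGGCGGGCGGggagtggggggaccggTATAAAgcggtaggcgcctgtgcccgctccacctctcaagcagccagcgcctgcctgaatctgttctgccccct
Searched on both strands, it held the TATA box TATAAA from -24, the GC box GGGCGG from -96, -54, -50 and -46 (the last 3 overlap each other), and the TEAD core GGAATG from -140, counted in bases from the start. The AP-1 site TGANTCA, the SOX core ACAAT and the E box CACGTG were not among the letters of this window. Of 27305 promoters of the same length, 11.95% held TATAAA, 44.6% GGGCGG and 14.05% GGAATG, and of the 9488 that belong to tested genes 5.07%, 72.3% and 10.5%. The KRT8 entry of that table starts 21393 bases upstream of the canonical start and is not printed.

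SOX9 (ENSG00000125398; chromosome 17, 72121020 to 72126416, plus strand) measured 128.4, 156.0, 171.8 and 137.7 TPM with DMSO and 59.4, 72.1, 43.9 and 52.9 TPM with EB. The groups were apart, with 72.1 TPM the highest EB value and 128.4 TPM the lowest DMSO value. The mean of 148.5 ± 19.3 TPM with DMSO was 57.1 ± 11.9 TPM with EB (SD, n = 4), a log2 fold change of -1.38 (SE 0.17, limma adjusted p = 0.00042). SOX9 to KRT19, a transcription factor of duct identity against a keratin of duct identity, was a ratio of 0.913 ± 0.102 with DMSO (0.790 to 1.02) and 0.1001 ± 0.0190 with EB (0.0791 to 0.124).

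For each of the 6 tested genes, the exact two-sided permutation test over the 70 assignments of the libraries gave p = 0.0286, the smallest p that 4 against 4 allows. Any gene whose groups do not overlap gets this p, so it adds nothing to the separation given above. On the TPM scale the DMSO order was KRT8, KRT18, KRT19, SOX9, KRT80 and MUC1. KRT19 and SOX9 overlapped in it, as did KRT80 and MUC1, and the other neighbours did not. With EB the order was the same and no neighbours overlapped.

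**Figure D3:**
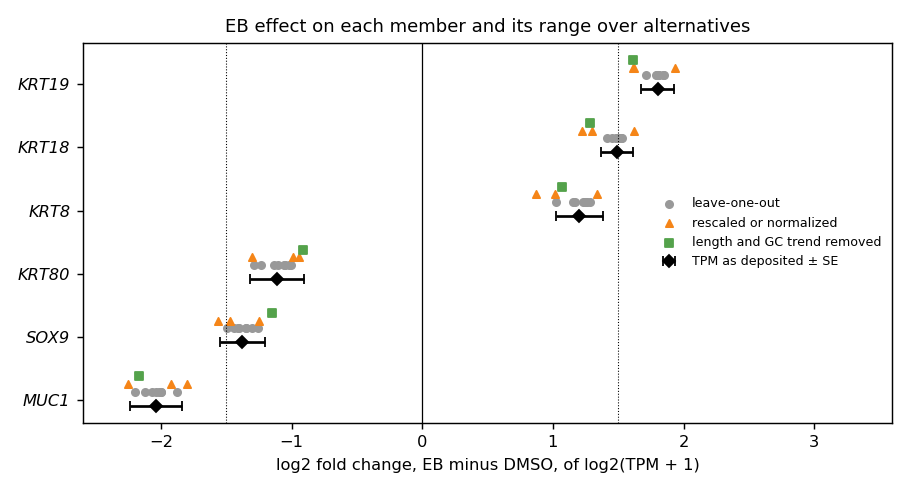
Log2 fold change (EB minus DMSO, of log2(TPM + 1)) of the 6 tested genes with its SE as black diamonds, beside the values with 1 library left out (grey), rescaled or normalized (orange) and with a length and GC trend removed (green). Each gene keeps its side of 0 under every setting drawn, and dotted lines at 1.5 and -1.5 mark the threshold the study names.

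The median fold change differed between deciles of transcript length, so each gene was set among the tested genes of its own decile. KRT18 and KRT19 lie in the decile of 1226 to 1742 bases, whose median log2 fold change was 0.24, and they were above 98.7% and 99.2% of its 1168 genes. KRT8 was above 97.4% of the 1169 genes of 1743 to 2194 bases (median 0.12), and MUC1 was the lowest gene of that same decile. In the decile of 3831 to 4564 bases (median -0.28), 1.88% of genes were below SOX9 and 5.65% below KRT80. The 6 genes thus lay toward the ends of their length deciles, on the side of their call. This placing uses the same fold changes as the calls and is not a separate test.

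Most of the keratin family was at or near 0. Of 48 keratin genes besides the members, 34 were listed at 0 in all libraries and 4 could be tested, of which 3 rose. Over all genes tested 15.2% were higher. KRT10, the type I keratin of differentiating epidermis, went from 16.6 ± 2.14 to 33.5 ± 2.90 TPM (SD, n = 4; log2 fold change 0.98, limma adjusted p = 0.000682). KRT32, a hair keratin, rose from a mean of 0.880 to 2.40 TPM (limma adjusted p = 0.00867), and KRT13, of mucosal epithelium, from 0.691 to 1.61 TPM (limma adjusted p = 0.0287). With DMSO, KRT32 reached 1 TPM in replicate 2 only (1.33 TPM) and KRT13 in no library. Both thus passed the filter on low values through their EB libraries, so the filter favoured a rise in them. The KRT13 call ended under 5 alternatives, among them leaving out DMSO replicate 3, EB replicate 3 or EB replicate 4 (limma adjusted p up to 0.0807). KRT15, a basal keratin, had 55.2 ± 15.4 TPM with DMSO and 80.0 ± 11.3 TPM with EB and did not pass the test (limma adjusted p = 0.0605). The median log2 fold change of these 4 was 0.72, against -0.11 over all genes tested, and 1 to 4 of them passed as higher across the alternatives tried. This median takes in KRT32 and KRT13, which the filter favoured. Of 27 keratin genes in the type II region of chromosome 12, including KRT18 at its end, 3 reached a mean of 1 TPM with DMSO and 3 with EB. Of 28 in the type I region of chromosome 17, 3 did with DMSO and 5 with EB, those added with EB being KRT32 and KRT13.

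**Figure D4:**
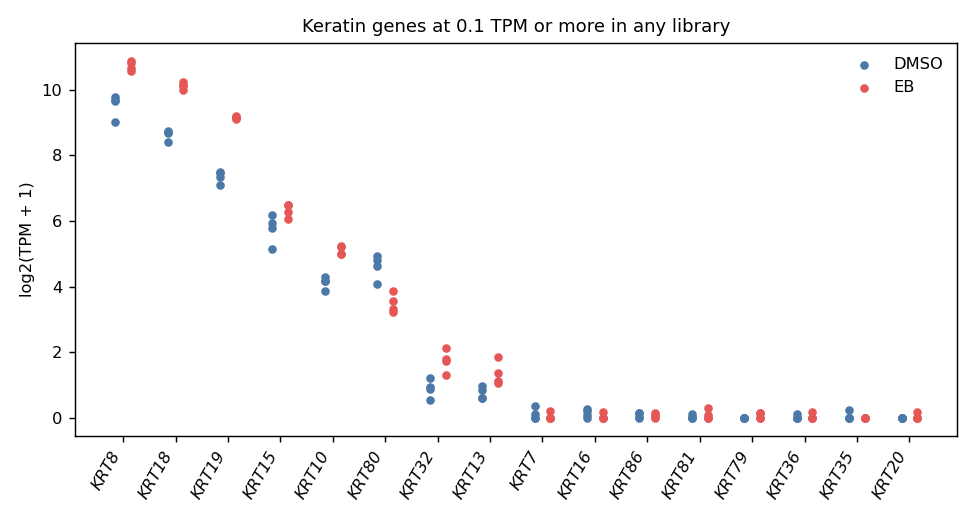
Log2(TPM + 1) of the 16 keratin genes at 0.1 TPM or more in any library, with 4 DMSO and 4 EB points each, in order of level. KRT8, KRT18 and KRT19 stand above the others in both groups, KRT80 is lower with EB, and KRT7 and KRT81 stay near 0.

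Neighbouring tested genes on the chromosome, picked after their values were seen, did not all share a member's direction. TRIM46 and THBS3, 0.853 and 2.67 kb from MUC1, had log2 fold changes of -1.63 (limma adjusted p = 0.000168) and -1.17 (limma adjusted p = 0.00239). EIF4B, a translation initiation factor gene 53.4 kb beyond KRT18, fell (log2 fold change -0.72, limma adjusted p = 0.0375) where KRT8 and KRT18 rose. KRT15 lies 1.09 kb and KRT13 17.9 kb from KRT19. The tested gene nearest to SOX9, SLC39A11, lies 519.5 kb away and had a log2 fold change of 0.31 without passing the test.

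The genes closest in pattern over the 8 libraries were found by the root mean square difference of centred log2(TPM + 1). For KRT8 these were SURF2 (0.0729) and ADRM1 (0.0828), for KRT18 CTSL (0.0714) and RGS20 (0.0881), and for KRT19 TM4SF1 (0.0897) and SPOCD1 (0.102). SDC3 (0.0444) and RTL5 (0.0611) were closest to KRT80, and PRRC2C (0.0718) and SOS1 (0.0815) to SOX9. MUC1 had no neighbour as near, with PARP9 at 0.205 and NLRC5 at 0.244.

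Whether the cells carry a duct program was checked with 3 lists of duct genes. With DMSO, 9 of 23 duct transcription factors, 11 of 22 duct channels, transporters and enzymes and 11 of 33 duct surface and secreted markers reached a mean of 1 TPM. Of all 20263 genes, 11445 to 11894 reached 1 TPM in the single DMSO libraries, a larger share than in any of the 3 lists. These counts alone therefore do not show a duct program. CFTR, the chloride channel of duct secretion, and SPP1, TFF1, TFF2 and TFF3, secreted duct and mucosal products, were listed at 0 in all libraries. EPCAM and CDH1, picked after their values were seen as textbook epithelial genes, stayed under 0.5 TPM. Others had means well above 1 TPM with DMSO, such as EHF (28.4), SLC9A3 (24.2), ANO1 (20.1), CLDN4 (52.1 ± 42.7, SD, n = 4) and S100A6 (886.6 TPM). In DMSO replicate 3, however, CLDN4 was at 1.72 TPM. The duct lists were thus carried in part, at shares below that of the whole table and with CFTR at 0. Among the members, which are not on these lists, KRT8, KRT18, KRT19, SOX9 and MUC1 were measured and KRT7 was near 0. Defining acinar genes (PRSS1, CPA1, CELA3A, PTF1A), hormone genes (INS, GCG, SST) and PTPRC of leukocytes were at 0 throughout. Acinar markers summed to 4.85 to 7.21 TPM with DMSO and 4.67 to 6.90 TPM with EB, with 2 of 29 at a mean of 1 TPM, and leukocyte and endothelial markers to 3.72 to 5.90 and 5.39 to 6.28 TPM, with 1 of 15. Endocrine markers (6 of 24) summed to 324.0 to 367.6 TPM with DMSO and 190.5 to 234.9 TPM with EB, most of it SCG2, a granule protein gene (287.1 to 324.6 and 161.9 to 204.1 TPM). Stellate cell and fibroblast markers (5 of 14, with DCN and LUM at 0) summed to 314.4 to 464.9 and 216.0 to 264.2 TPM, most of it RGS5 (165.8 to 319.7 and 136.9 to 158.7 TPM). Of the endocrine markers 7 were tested, 1 rose and 4 fell, and of the stellate cell and fibroblast markers 5 were tested and 4 fell. Over all genes tested 15.2% were higher and 25.1% lower. The endocrine gene that rose, NKX6-1, passed the filter on low values only through its EB libraries. The endocrine and the stellate cell and fibroblast sums were both lower in every EB library than in any DMSO library. Their part in the fall of SOX9, MUC1 and KRT80 was not tested.

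Other duct genes moved in both directions, where over all genes tested 15.2% were higher and 25.1% lower. Of the duct transcription factors, 8 were tested, 3 rose and 3 fell (median log2 fold change 0.11). EHF, an epithelial ETS factor, fell from 28.4 ± 8.18 to 6.75 ± 1.93 TPM (SD, n = 4; log2 fold change -1.91, limma adjusted p = 0.000759), and SOX4 and FOXA1 were the others that fell. NKX6-1, HES1 and BHLHE40 rose, with log2 fold changes of 0.97, 0.59 and 0.79. NKX6-1, at 0.0326 to 0.144 TPM with DMSO and 1.08 to 1.29 TPM with EB, passed the filter on low values only through its EB libraries. FOXA1, at 1.01 to 1.18 TPM with DMSO and 0.251 to 0.574 TPM with EB, passed it only through its DMSO libraries. The filter thus favoured the direction in which each was called. Of 11 duct channels and transporters tested, 1 rose and 2 fell (median -0.37). SLC9A3, an apical sodium-proton exchanger, fell from 24.2 ± 8.43 to 4.85 ± 1.60 TPM and ANO1, a calcium-activated chloride channel, from 20.1 ± 6.98 to 8.15 ± 1.87 TPM (SD, n = 4), while the potassium channel gene KCNN4 rose (0.75). Of 10 duct surface and secreted markers tested, 1 rose, S100A6, a calcium-binding protein (886.6 ± 309 to 2588 ± 701 TPM, SD, n = 4), and 5 fell (median -0.25), among them the lipocalin LCN2, the tight junction gene OCLN, CD24 and CD44. The count of duct channels lower was 5 without DMSO replicate 4 and also 5 with nuclear genes rescaled, and the count higher was 5 with median-ratio scaling and 0 without DMSO replicate 3, EB replicate 2 or EB replicate 4. LCN2, at 1.12 to 2.12 TPM with DMSO and 0 to 0.153 TPM with EB, passed the filter on low values only through its DMSO libraries. With the length and GC trend removed, 2 duct surface markers were lower in place of 5. OCLN lost its call under 3 alternatives, among them leaving out DMSO replicate 3 or EB replicate 3 (limma adjusted p up to 0.0554).

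Of 12 desmosome and linker genes tested, 0 passed as higher by limma (0 also at an unadjusted p under 0.05, and 2 with the length and GC trend removed) and 3 fell (median log2 fold change -0.21), a share near the 25.1% of all genes tested that were lower. These were JUP, plakoglobin, from 64.6 ± 7.66 to 28.8 ± 2.57 TPM, DSP, desmoplakin, from 10.8 ± 2.64 to 4.78 ± 1.02 TPM, and DSG2, a desmosomal cadherin (log2 fold change -0.70). The lower count was 7 with DMSO replicate 4 left out and also 7 with nuclear genes rescaled. Of 4 hemidesmosome genes tested, ITGB4 fell from 6.81 ± 1.59 to 0.643 ± 0.214 TPM (SD, n = 4; log2 fold change -2.23, limma adjusted p = 5.12e-05) and its integrin partner ITGA6 also fell (-1.39), while COL17A1 rose with a limma adjusted p of 0.0499, which 9 alternatives took past 0.05. ITGB4 lay between 4.55 and 8.16 TPM with DMSO and between 0.463 and 0.951 TPM with EB. Only its DMSO libraries thus took it past the filter on low values, which favoured a fall in it. Among 9 other intermediate filament genes tested, 1 rose and 2 fell (median -0.31), counts that ran from 0 to 1 and from 1 to 4 with any 1 library left out. VIM, the mesenchymal filament and by far the most abundant, had 6162 ± 220 TPM with DMSO and 7108 ± 524 TPM with EB (SD, n = 4) without passing the test (limma adjusted p = 0.170). Its lowest EB library, at 6491 TPM, was nevertheless above its highest DMSO library, at 6414 TPM. KRT8 was 0.123 ± 0.0285 of VIM with DMSO and 0.243 ± 0.0414 with EB. Of 15 keratin regulators and binding proteins tested, 4 rose and 2 fell (median 0.09), against 15.2% and 25.1% of all genes tested. With any 1 library left out 3 to 5 of them rose and 0 to 3 fell. SFN, an adaptor of the phosphoserine-binding family that docks on keratins, rose from 6.92 ± 0.714 to 21.8 ± 3.71 TPM, and HSPB1, a small heat shock protein that binds filaments, from 2253 ± 392 to 3841 ± 92.9 TPM (SD, n = 4). KRTCAP2 (0.89) and CSNK1A1 (0.50) were the others that rose.

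**Figure D5:**
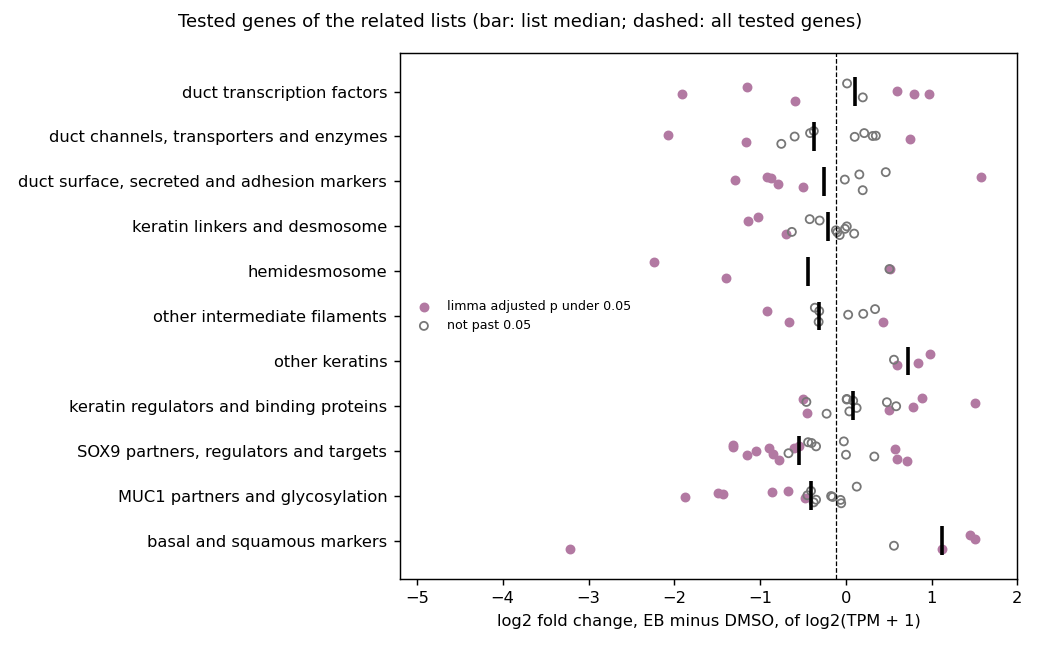
Log2 fold change (EB minus DMSO, of log2(TPM + 1)) of each tested gene in 11 lists around the duct genes, filled where the limma adjusted p is under 0.05, with a bar at each list's median and a dashed line at -0.11, the median of all genes tested. The other keratins lie to the right of the line, and most other lists spread to both sides of it.

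Basal and squamous markers, the program that KRT17 belongs to, had 5 genes tested of 25, of which 3 rose and 1 fell. For this and the lists below, the shares over all genes tested were 15.2% higher and 25.1% lower. S100A2 (log2 fold change 1.45) and SFN, which is also on the regulator list, were among those that rose. TP63, the transcription factor of basal epithelium, fell from 104.3 ± 21.7 to 10.8 ± 4.40 TPM (SD, n = 4; log2 fold change -3.21, limma adjusted p = 7.18e-05), and KRT5, KRT6A, KRT6B and KRT6C were at 0 in all libraries. Of 19 SOX9 partners, regulators and targets tested, 3 rose and 9 fell (median -0.55), against 25.1% of all genes tested that were lower. The largest log2 fold changes among those that fell were NOTCH2 (-1.32), a Notch receptor, JAG1 (-1.31), a Notch ligand, SOX4 (-1.15), a SOX family factor, and NOTCH1 (-1.05), a Notch receptor. Those that rose were SOX8 (0.71), a close relative of SOX9, HES1 (0.59), a Notch target, and SOX18 (0.58). The count lower was 5 without DMSO replicate 2 or 3 or EB replicate 3 or 4, and 13 without DMSO replicate 4. With the length and GC trend removed it was 7. NOTCH1 and NOTCH2 lie in the decile of the longest transcripts (7315 to 34626 bases), whose median log2 fold change was -0.54. Of 15 MUC1 partners and glycosylation genes tested, 0 passed as higher by limma (0 also at an unadjusted p under 0.05) and 6 fell (median -0.41), or 3 without DMSO replicate 3, EB replicate 3 or EB replicate 4. EGFR, a receptor kinase that phosphorylates MUC1, fell from a mean of 41.5 to 13.9 TPM (log2 fold change -1.48, limma adjusted p = 0.000547), and ERBB2 from 93.3 to 49.4 TPM. C1GALT1C1, the chaperone of mucin O-glycan synthesis, went from 17.8 ± 1.68 to 6.86 ± 9.28 TPM (SD, n = 4; limma adjusted p = 0.0251) with overlapping groups, and 7 alternatives ended its call. Of the 14 other mucins 2 were tested and MUC6 fell (-0.46, limma adjusted p = 0.0404), a call that ended under 8 alternatives and turned to 0.09 with the length and GC trend removed.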

How the data were processed

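PANC-1 cells were sequenced as 4 DMSO and 4 EB libraries, made with an mRNA kit. The methods give 4 biological replicates per group but also speak of triplicates. The authors deposited TPM computed within each library, with CLC Genomics Workbench named among their tools. No read counts were used, so the depth and the precision it gives are unknown. Per the labels, both the mouse build GRCm38/mm10 and hg38 are named, and all identifiers were human. Of these, 20148 matched GENCODE 44 on hg38, from which positions and lengths were taken, and 115 did not. EB was compared with DMSO on log2(TPM + 1) with limma 3.58.1 in R 4.3.3 (lmFit and eBayes, prior degrees of freedom 3.88, no covariate), with Benjamini-Hochberg adjustment over the 11725 genes at 1 TPM or more in at least 4 libraries. A fold change on this scale understates the change of low genes. A low gene could pass the filter through the libraries of 1 group alone. The code was tested on simulated data.

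The members and lists were chosen with earlier results of these data known. All members were named. From each list the called genes were named, at most the 4 with the largest change per direction, and at most the 3 most abundant with DMSO, except items not reported here. Alternatives were another pseudocount (0.1), filters (none, 5 TPM), median-ratio scaling, quantile normalization, rescaling to nuclear genes, removal of a length and GC trend, an intensity trend, a replicate block, a log2 threshold of 1 and each library left out.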

Additional observations from a re-analysis of the deposited data

Results flagged for a closer look

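In groups of 4 libraries, a single library was set apart when its gap to the nearest other was above Dixon's 95% critical value as a share of the group's range. Of 32 groups checked 3 met it, and chance gives about 1 in 20. KRT18 in DMSO replicate 4, at 342.0 TPM, was the lowest of its group (gap 0.862 of the range). The summed share of KRT8, KRT18 and KRT19 in all TPM was 0.0991% in that library (gap 0.894), the library with 39.0% mitochondrial transcripts. As a share of nuclear TPM, the same sum was lowest in EB replicate 2, at 0.377% (gap 0.861). The part of these libraries in the member results was measured by leaving each out, and all 6 calls held.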

How the results depend on the processing

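Of the 6 members called by limma, 3 remained higher and 3 lower under all 17 alternatives planned. Their log2 fold changes ranged from 0.87 to 1.33 for KRT8, 1.22 to 1.62 for KRT18, 1.61 to 1.93 for KRT19, -1.30 to -0.91 for KRT80, -2.29 to -1.80 for MUC1 and -1.57 to -1.15 for SOX9, and the highest adjusted p was 0.0125 (KRT80). At the study's thresholds the count of members higher was 2 with median-ratio scaling and 1 to 2 with 1 library left out. It was 2 without DMSO replicates 1, 2 or 3 and without EB replicate 2. The count lower was 2 with nuclear genes rescaled, and above a log2 threshold of 1 both counts were 3. The median log2 fold change of all genes tested was 0.01 with median-ratio scaling, 0.02 with quantile normalization and -0.28 with nuclear genes rescaled. With the length and GC trend removed, PIAS1 (log2 fold change 0.0095) and MUC6 (0.088) changed sign. Of 54 called genes named from the lists, 38 kept their call under every alternative. Same-numbered libraries had correlations of deviations of 0.183, 0.0463, -0.0879 and 0.2845, not every library correlated best with its own number, and the numbers were not taken to pair the libraries, while the replicate block left the member counts at 3 and 3. Rescaling without DMSO replicate 4 and the counts of the lists under the alternatives were added after seeing the data. Among these, the count lower with nuclear genes rescaled went from 9 to 13 for SOX9 partners and from 6 to 11 for MUC1 partners. KRT7, KRT81 and KRT17 were too low to be tested, and the depth behind their values is unknown. The cause of these shifts was not tested.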
